A study of Mus musculus with 57 samples.

Results

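The 10 genes described here, S100a8, S100a9, Retnlg, Ly6g, Camp, Ngp, Ltf, Mpo, Elane and Mmp8, encode granule, cytosolic and surface proteins of neutrophils. They were read by symbol from 2 tables of read counts for mouse brain cells isolated by the surface protein CD11b, and all 10 were found in both, among 50565 genes in the first table and 53278 in the second. The first table, called the sex experiment here, holds 18 adult animals with 1 column of counts each. They were male wild type (WT, n = 4), male P2RY12 knockout (KO, n = 5), female WT (n = 4) and female KO (n = 5). P2RY12 is a receptor for ADP that microglia carry, and KO mice were littermates of the WT mice. The second table, called the LPS experiment here, crosses genotype with treatment: WT ns (n = 8), WT LPS (n = 9), KO ns (n = 8) and KO LPS (n = 8). LPS is lipopolysaccharide, a bacterial endotoxin, given intraperitoneally at 1 mg/kg. The labels do not spell out ns, and they give no strain, age in weeks or time after injection for any group. For the LPS experiment they give no sex.

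CD11b is an integrin chain found on microglia and also on neutrophils and monocytes, so a CD11b isolation can carry over blood cells or cells of the brain's borders and its adjoining bone marrow. A neutrophil fills its granules in sequence as it matures in the bone marrow. Azurophil granules with Mpo and Elane are filled first, at the promyelocyte stage. Specific granules with Ltf, Camp, Ngp and Mmp8 follow, and gelatinase granules come later. S100a8 and S100a9 transcripts persist into the circulating cell, while transcripts of the early granule proteins are lost before release. In bulk RNA, fewer cells of a type and less RNA per cell cannot be told apart.

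Promoters of 4 genes are shown because these genes diverged in the results below: S100a8, whose level stands for the late transcripts, Ltf of the specific granules, and Mpo and Elane of the azurophil granules. Each sequence is the 250 bases before the annotated start, 5′ to 3′ on the gene's strand, from RefSeq on the mouse build GRCm38.p6. Capitals mark matches on either strand to TTNNGNAA, a C/EBP-type motif, or GAGGAA, a PU.1-type motif. Both factors act in granulocyte development.
S100a8 promoter (chr3:90668821-90669070, plus strand): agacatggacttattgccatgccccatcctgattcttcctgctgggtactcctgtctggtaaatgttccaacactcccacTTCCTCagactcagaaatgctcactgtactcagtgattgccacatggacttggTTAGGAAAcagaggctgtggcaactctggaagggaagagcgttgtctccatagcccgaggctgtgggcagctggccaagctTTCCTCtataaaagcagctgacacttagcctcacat
Ltf promoter (chr9:111019042-111019291, plus strand): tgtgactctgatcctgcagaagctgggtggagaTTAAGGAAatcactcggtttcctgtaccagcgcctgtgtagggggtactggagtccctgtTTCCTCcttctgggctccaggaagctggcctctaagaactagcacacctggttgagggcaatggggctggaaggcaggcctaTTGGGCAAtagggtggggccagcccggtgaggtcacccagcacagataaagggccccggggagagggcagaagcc
Mpo promoter (chr11:87793534-87793783, plus strand): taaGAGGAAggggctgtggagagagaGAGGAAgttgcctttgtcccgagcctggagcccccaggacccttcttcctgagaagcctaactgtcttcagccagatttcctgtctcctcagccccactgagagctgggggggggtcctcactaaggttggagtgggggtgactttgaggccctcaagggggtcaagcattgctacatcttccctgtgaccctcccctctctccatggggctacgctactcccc
Elane promoter (chr10:79886062-79886311, plus strand): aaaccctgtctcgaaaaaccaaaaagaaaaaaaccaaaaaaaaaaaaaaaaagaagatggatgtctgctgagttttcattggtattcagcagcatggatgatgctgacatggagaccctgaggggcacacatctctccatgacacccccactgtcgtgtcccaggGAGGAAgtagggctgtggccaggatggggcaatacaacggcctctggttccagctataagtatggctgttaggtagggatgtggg
S100a8 held 1 C/EBP-type and 2 PU.1-type matches, and Ltf held 2 and 1. Mpo held 0 C/EBP-type and 2 PU.1-type matches, and Elane held 0 and 1. Of the 10 genes, 7 had at least 1 C/EBP-type match and 6 at least 1 PU.1-type match, against 36.8% and 23.3% of 32851 promoters of the same length. TGTGGT, a RUNX-type motif, was found for 1 of the 10 genes and in 14.0% of all promoters, and TATAAA for 2 and in 12.4%. No match of one motif overlapped a match of another in these 10 genes. A match describes letters in this window and was not tied to binding.

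Total counts were 58.5 M to 318.5 M per animal in the sex experiment and 15.9 M to 168.4 M per library in the LPS experiment. The lowest count of any of the 10 genes in any library was 40 in the former and 7 in the latter. All 10 passed the filter on low counts in both. Levels below are CPM, a gene's counts relative to the library's summed counts over the genes that passed that filter, scaled between libraries by TMM, which evens out differences in composition. P2ry12 checked the genotype labels in the sex experiment, where it lay at 3007 to 5928 CPM in WT and at 309.3 to 526.4 CPM in KO animals. In the LPS experiment, 4 WT libraries that carry the number 2 in their library names (WT ns 1, WT ns 5, WT LPS 1 and WT LPS 6) went against their treatment labels. Saa3, an acute-phase gene induced by LPS, lay at 1781 to 2491 CPM in the pair labelled ns and at 1.59 to 3.21 CPM in the pair labelled LPS, while the other WT ns samples had 1.52 to 64.4 CPM, the highest in WT ns 8, and the other WT LPS samples 1418 to 9720 CPM. The KO libraries followed their labels, with 0.861 to 3.24 CPM at ns and 1024 to 3698 CPM under LPS, and in the sex experiment Saa3 reached at most 0.361 CPM. P2ry12 lay at 3516 to 5406 CPM in the other WT ns samples and at 400.3 to 1063 CPM in the other WT LPS samples. In KO it lay at 585.2 to 1243 CPM at ns and at 84.24 to 154.1 CPM under LPS, so WT LPS overlapped KO ns. The libraries of number 2 had 481 and 927.4 CPM in the pair labelled ns and 4461 and 12150 CPM in the pair labelled LPS. These 4 libraries are therefore shown apart, and each WT comparison of the 10 genes is given with and without them. WT LPS 8 and WT LPS 9 differed by little more than sampling noise (chi-square per degree of freedom 1.86, against 8.32 for the next closest pair), for example with 11900 and 10647 S100a8 counts, and were summed to 1 sample, which left 32 samples. The labels call the cells microglia. The listed microglia genes were high in every library, with a summed level of 16560 CPM or above throughout.

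In the sex experiment, 2 WT animals carried most of the neutrophil signal. S100a8, a subunit of the calcium-binding protein calprotectin, lay in male WT at 415.4, 440.9, 1912 and 12130 CPM and in male KO at 503, 634.8, 722.1, 818.4 and 900.7 CPM. In female WT it lay at 185.8, 270.4, 488.7 and 6585 CPM and in female KO at 350.9, 390.2, 544.3, 672.9 and 1162 CPM. The 2 highest values belonged to male WT 5 and female WT 2, and the KO ranges lay inside the WT ranges in both sexes. Across all 18 animals S100a8 spanned 65.3-fold and Elane 373-fold, whereas within male KO S100a8 spanned 1.79-fold.

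**Figure D1:**
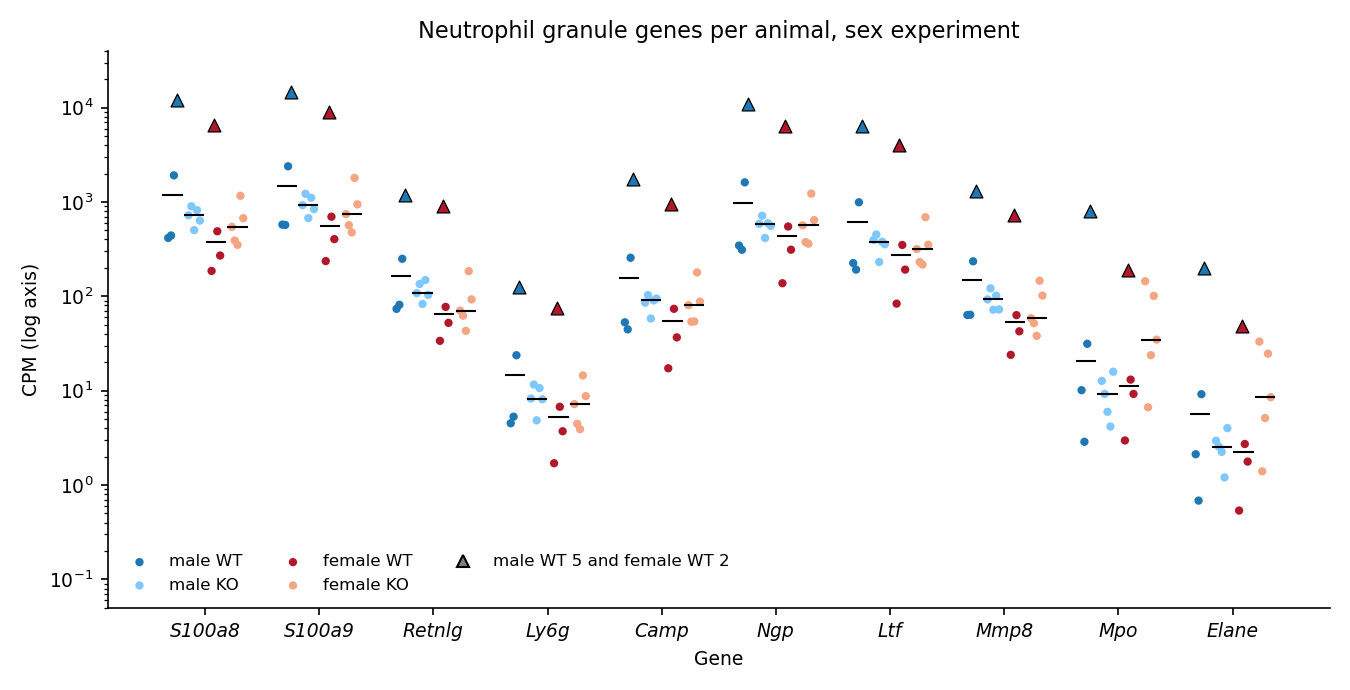
Level of each of the 10 genes in CPM (log axis) for every animal of the sex experiment, coloured by sex and genotype; horizontal bars are group medians and triangles mark male WT 5 and female WT 2. For all 10 genes these 2 animals lie above every other animal of their own group, with S100a8 at 12130 and 6585 CPM.

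The other 9 genes followed the same 2 animals. Mpo, the myeloperoxidase of azurophil granules, lay at 2.87, 10.1, 31.4 and 799 CPM in male WT and at 4.17 to 15.9 CPM in male KO. In female WT it lay at 2.97, 9.24, 13.1 and 189 CPM, and in female KO at 6.68, 23.8, 34.8, 101 and 144 CPM. The female KO animals thus overlapped the female WT animals, and 4 of the 5 female KO values lay above 3 of the 4 female WT values. Ltf, the iron-binding lactoferrin of specific granules, lay at 191.9 to 6414 CPM in male WT, 231.1 to 452.1 CPM in male KO, 83.6 to 3985 CPM in female WT and 217 to 689.1 CPM in female KO.

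Genotype was tested over all genes with edgeR's quasi-likelihood test, with p-values adjusted by Benjamini-Hochberg over all 31709 genes tested and a call at adjusted p under 0.05. In males, 0 of the 10 genes were called, against 0.00946% of all genes. All 10 had lower estimates in KO, with log2 fold changes from −4.46 (Mpo) to −1.79 (Retnlg), a median of −2.41 against −0.01 over all genes tested, and edgeR adjusted p-values of 0.719 to 0.733. The S100a8 estimate was −2.38 ± 1.10 (SE) and that of Mpo −4.46 ± 1.59, and 6 of the 10 had an unadjusted p under 0.05, against 6.85% of all genes. Without male WT 5 and female WT 2, a choice made after their levels were seen, the median of the 10 was −0.38 and 0 had an unadjusted p under 0.05.

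In females, 0 of the 10 genes were called, against 0.164% of all genes. The median log2 fold change, KO minus WT, was −1.53, with 8 estimates below 0 and those of Mpo (0.22 ± 1.44) and Elane (0.14 ± 1.46) above 0. Leaving out the same 2 animals turned all 10 estimates positive, with a median of 0.96 and edgeR adjusted p-values of 0.461 to 0.885. The female estimate for S100a8 was −1.59 ± 1.08 with all animals, 0.99 ± 0.91 without female WT 2 alone and 0.98 ± 0.57 without both animals. At an unadjusted p under 0.05, 0 of the 10 genes and 5.22% of all genes passed with all animals. Averaged over the sexes, 0 of the 10 were called, against 0.432% of all genes. The median was −2.004 with all animals, when 8 of the 10 had an unadjusted p under 0.05 against 9.02% of all genes, and 0.30 without the 2.

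The difference between the sexes in the KO effect called 0 of the 10 genes and 0% of all genes, with 1 of the 10 and 2.77% of all genes at an unadjusted p under 0.05. Its largest estimate was for Mpo, 4.67 ± 2.13 (unadjusted p = 0.0457, adjusted p = 0.999, edgeR), and over 24 fits with other settings or 1 animal left out the Mpo estimate ranged from 0.86 to 7.35, with 0 calls. Females against males, averaged over the genotypes, called 0 of the 10 against 0.861% of all genes, with a median log2 difference of −0.44 and 0 of the 10 at an unadjusted p under 0.05. DESeq2 called 0 of the 10 in each of these 5 comparisons.

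Other cell markers moved with the 2 WT animals. The summed level of the 10 listed monocyte genes, all of them detected in every animal, was 2246 CPM in male WT 5 and 1403 CPM in female WT 2, while the group medians were 359.7 to 484.8 CPM. The 4 mast cell and basophil genes summed to 51.5 and 68.5 CPM there against group medians of 3.87 to 6.65 CPM, and the 8 microglia genes found in this table summed to 22450 and 22970 CPM, the lowest of their groups, against medians of 31380 to 35560 CPM. The 6 erythroid genes did not set these 2 animals apart, at 2788 and 2955 CPM within a range of 433.6 to 3979 CPM. The part of these cells in the results was not tested.

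Within the sex experiment, 8 of the 10 genes kept nearly fixed proportions to one another. Per 1000 S100a8 counts, S100a9 ranged from 1198 to 1549 counts over the 18 animals, Ngp, a neutrophilic granule protein, from 705.7 to 1152, Ltf from 435.3 to 716.4 and Mmp8, the neutrophil collagenase, from 106.5 to 157.4. Camp, the precursor of the antimicrobial peptide CRAMP, ranged from 93.0 to 154 and Ly6g, the surface antigen used to sort mouse neutrophils, from 9.17 to 13.8. So the highest and lowest ratios of these genes differed by at most 1.97-fold (Retnlg, a secreted resistin-like protein), across animals whose S100a8 level differed 65.3-fold. Ratios are compared here between animals, not between genes, since counts also depend on transcript length.

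Mpo and Elane, the neutrophil elastase, did not keep these proportions. Mpo ranged from 5.10 to 265 counts per 1000 S100a8 counts, a 52.1-fold span, and Elane from 1.47 to 60.9, a 41.3-fold span. The highest ratios of both were in female KO 1, which had an S100a8 level of only 544.3 CPM, and 4 of the 5 female KO animals exceeded all female WT animals in the Mpo ratio (51.6, 67.8, 87.0 and 265 against 16.0 to 34.2), with female KO 2 at 17.1. These ratios were examined after the levels had been seen and carry no test. Mpo and Elane correlated with each other at Pearson r = 0.994 over the 18 animals, while either correlated with the other 8 genes at 0.724 to 0.865, and pairs among those 8 at 0.975 or above. The points share library, depth and the 2 high animals, so these are descriptions.

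**Figure D2:**
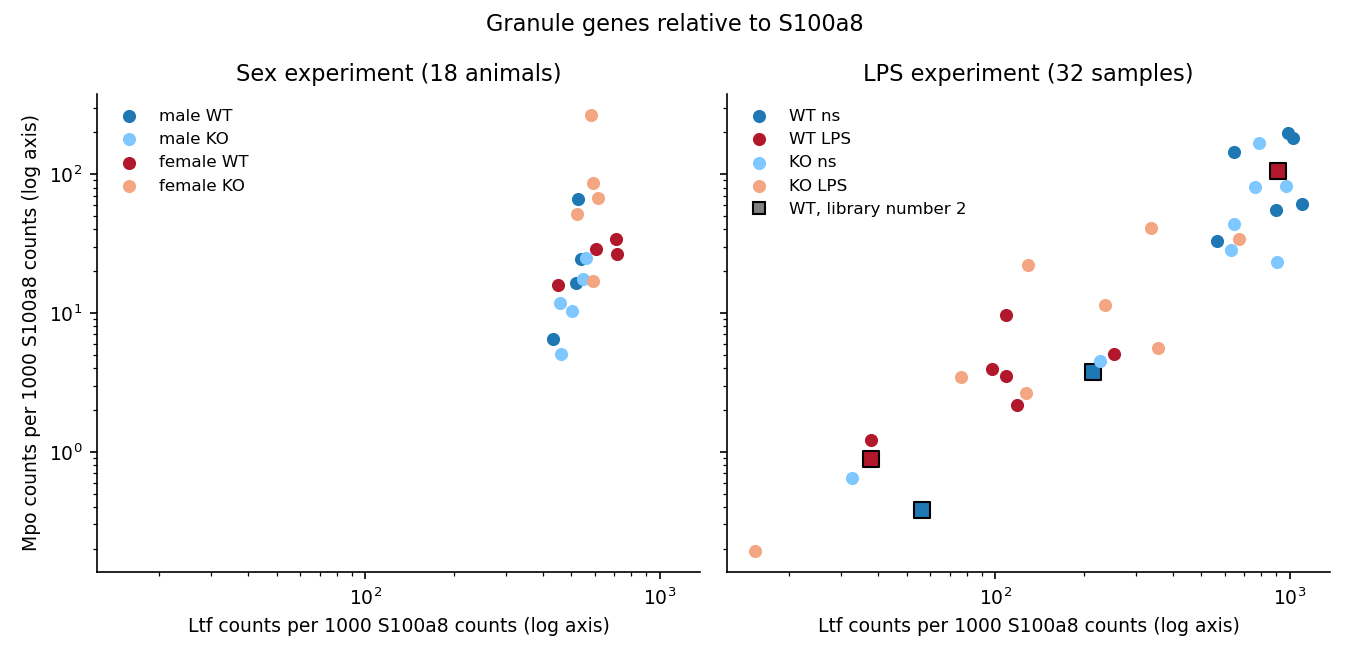
Ltf (horizontal) and Mpo (vertical) counts per 1000 S100a8 counts, both on log axes, with 1 point per animal or sample, for the sex experiment (left) and the LPS experiment (right); squares are the WT libraries of number 2. The Ltf ratio stays between 435.3 and 716.4 on the left while the Mpo ratio spans 52.1-fold; on the right both ratios vary, with the WT ns samples of other numbers at the upper right and the WT LPS samples of other numbers at the lower left.

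In the LPS experiment the 10 genes varied widely in every group. S100a8 had a lowest, median and highest level of 69.6, 524.7 and 3194 CPM in WT ns, of 403.5, 920.6 and 5066 CPM in WT LPS, of 60.8, 187.3 and 3501 CPM in KO ns and of 276.7, 568.2 and 1539 CPM in KO LPS. All 4 ranges overlapped. The WT libraries of number 2 lay inside them, with S100a8 at 377.9 and 862.3 CPM in the pair labelled ns and 1373 and 1689 CPM in the pair labelled LPS.

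Mpo, Elane and Ltf separated the WT treatment groups more than S100a8 did. In the WT ns samples of other numbers Mpo lay at 2.28, 16.2, 30.97, 36.8, 516.8 and 627.2 CPM, and in the WT LPS samples of other numbers at 0.965, 2.28, 2.98, 3.90, 5.02 and 6.19 CPM, so that the ranges overlapped through WT ns 2 alone. Of the libraries of number 2, the pair labelled ns had 1.41 and 0.328 CPM, and the pair labelled LPS had 145 and 1.49 CPM. Elane ran from 0.307 to 265.7 CPM in the WT ns samples of other numbers and from 0.419 to 7.60 CPM in the WT LPS samples, and Ltf from 39.3 to 3154 and from 43.9 to 250.7 CPM. The library labelled WT LPS 1 had the highest Mpo, Elane and Ltf of its group, while WT ns 3 and WT ns 8 had the highest of theirs.

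**Figure D3:**
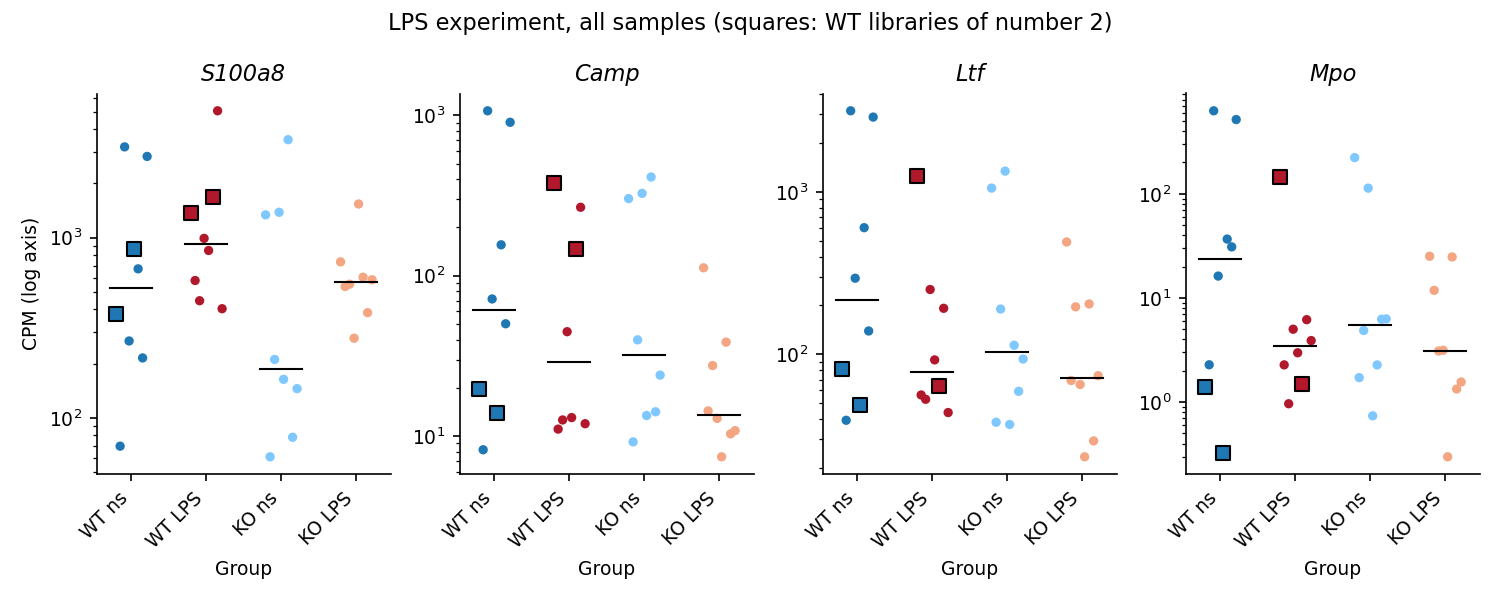
Level of S100a8, Camp, Ltf and Mpo in CPM (log axes) in the 4 groups of the LPS experiment, 1 point per sample with bars at group medians; squares are the WT libraries of number 2. S100a8 overlaps in all 4 groups, with medians of 187.3 to 920.6 CPM, while Mpo lies at 627.2 and 516.8 CPM in WT ns 3 and WT ns 8 and at 145 CPM in the library labelled WT LPS 1.

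With all samples in their labelled groups, LPS against ns in WT called 0 of the 10 genes, and edgeR called 0% of 15857 genes tested. At an unadjusted p under 0.05, 3 of the 10 and 22.7% of all genes passed: Ltf at −2.40 ± 0.94, Mpo at −3.86 ± 1.44 and Elane at −3.32 ± 1.34 (log2 fold change ± SE), with edgeR adjusted p-values of 0.151, 0.140 and 0.160. DESeq2 on the same samples called Mpo alone of the 10 (adjusted p = 0.0289). Without the 4 WT libraries of number 2, edgeR called 3 of the 10, all lower with LPS, against 30.7% of 16088 genes called in either direction. A share of 3 in 10 is near that background.

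The 3 genes that fell were Mpo and Elane of the azurophil granules and Ltf of the specific granules. Mpo fell by 5.68 ± 1.48 on the log2 scale (adjusted p = 0.00462), Elane by 5.07 ± 1.49 (adjusted p = 0.0107) and Ltf by 3.34 ± 1.00 (adjusted p = 0.0125, edgeR). The estimates for S100a8 (0.10 ± 0.94), S100a9 (−0.11 ± 0.90), Retnlg (0.11 ± 0.70) and Mmp8 (0.12 ± 0.75) lay near 0 but with SEs of 0.70 to 0.94, so that changes of that size were not detectable. Camp (−2.52 ± 1.19), Ngp (−1.70 ± 0.88) and Ly6g (−1.45 ± 0.88) lay in between and were not called. The samples fall into 2 library sets by the codes in their library names. With each set taken alone, Mpo was at −6.24 and −5.47, Elane at −6.45 and −4.52 and Ltf at −3.26 and −3.44, with 0 called in either set. Leaving out WT ns 8 as well ended the calls of Ltf (−2.34, adjusted p = 0.0724) and Elane (−3.94, adjusted p = 0.0555, edgeR), while Mpo stayed called (−4.36, adjusted p = 0.0265). Leaving out WT LPS 7 as well added a call of Camp, at −4.46 (adjusted p = 0.00828, edgeR).

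**Figure D4:**
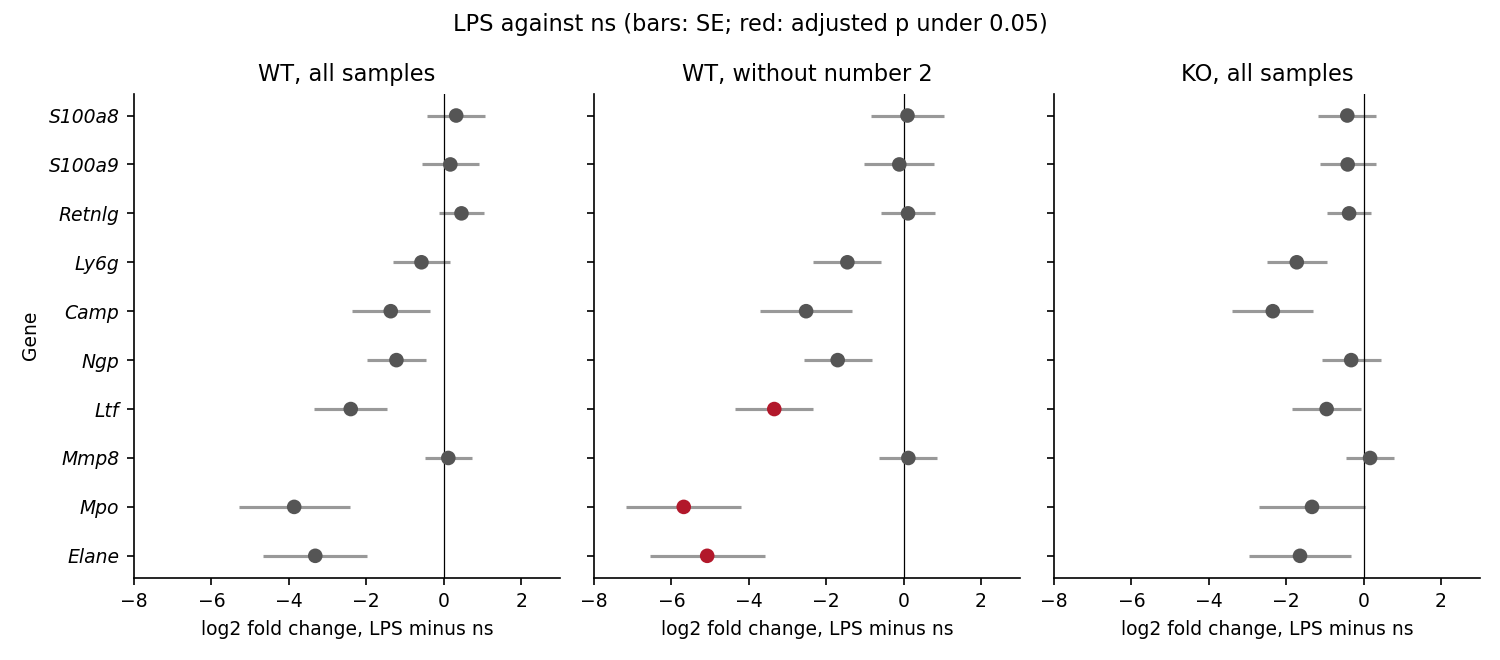
Log2 fold change of each of the 10 genes, LPS minus ns (horizontal axis), with bars of 1 SE, in WT with all samples (left), in WT without the libraries of number 2 (middle) and in KO (right); red marks an adjusted p under 0.05. Mpo, Elane and Ltf are red in the middle panel at −5.68, −5.07 and −3.34, and S100a8 lies between −0.42 and 0.32 in the 3 panels.

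Some proportions among the genes differed by treatment in WT, among them those of Ltf and Camp, which were nearly fixed in the sex experiment. Per 1000 S100a8 counts, Ltf lay at 564.7, 648, 896.4, 987.5, 1021 and 1102 in the WT ns samples of other numbers and at 37.9, 97.2, 108.7, 108.9, 118.4 and 252.9 in the WT LPS samples of other numbers. These ranges did not overlap. Of the libraries of number 2, the pair labelled ns had Ltf ratios of 215 and 56.4, inside the range of the other WT LPS samples. The pair labelled LPS had 907.7 (WT LPS 1) and 37.9 (WT LPS 6), the former inside the range of the other WT ns samples. The Camp ratio was 118 to 334.2 in WT ns and 15.4 to 52.7 in WT LPS of other numbers, and the Mpo ratio 32.8 to 196.4 and 1.22 to 9.67, again without overlap. S100a9, the other subunit of calprotectin, kept within 1181 to 1725 per 1000 S100a8 counts in all 32 samples. Even so, its ratios did not overlap either, at 1394 to 1725 in WT ns and 1198 to 1393 in WT LPS of other numbers. The Elane ratio also separated the WT ns and WT LPS samples of other numbers, at 4.416 to 83.2 and 0.4933 to 4.213. Other ratios overlapped: Ngp at 683.9 to 1509 and 190.8 to 1039, and Ly6g at 14.8 to 29.23 and 4.485 to 18.32. Retnlg, at 144.8 to 534.4 and 105.7 to 367.2, and Mmp8, at 129.7 to 183.6 and 70.66 to 311.9, overlapped too. How often ratios of genes outside the 10 separate these samples was not counted.

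In KO, LPS against ns called 0 of the 10 genes, against 22.3% of all genes. Camp lay at 9.20, 31.9 and 412.3 CPM (lowest, median and highest) in KO ns and at 7.43, 13.6 and 112 CPM in KO LPS, and Ly6g at 1.21, 4.20 and 65.6 CPM and at 2.13, 5.13 and 13.7 CPM. The groups overlapped for both genes. The edgeR estimates were −2.35 ± 1.05 for Camp (adjusted p = 0.107) and −1.73 ± 0.77 for Ly6g (adjusted p = 0.106), the 2 of the 10 with an unadjusted p under 0.05, against 34.1% of all genes. DESeq2 called both, at adjusted p = 0.0390 for Camp and 0.0429 for Ly6g. Mpo was at −1.33 ± 1.37 and S100a8 at −0.42 ± 0.75. For Mpo, library set 2 alone gave 0.93.

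The KO samples were set beside S100a8 in the same way. The Ltf ratio lay at 629.2 to 969.8 in 6 of the 8 KO ns samples, with KO ns 5 at 226.4 and KO ns 6 at 32.5, and at 15.2 to 669.1 in KO LPS, the highest in KO LPS 1. The Camp ratio ran from 82.1 to 235.6 in KO ns and from 4.83 to 152.5 in KO LPS, where KO LPS 1 alone exceeded 63.8. KO ns 6 had the highest S100a8 of its group (3501 CPM) with an Mpo level of 2.28 CPM.

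Genotype was then compared within each treatment. At ns, KO minus WT called 0 of the 10 genes against 0.114% of all genes, and without the WT libraries of number 2 also 0, against 0.0932%. All 10 estimates were below 0 in both fits, with medians of −0.85 and −1.02. Without those libraries, Ltf was at −2.24 ± 0.92 and Mpo at −2.75 ± 1.24, and 4 of the 10 had an unadjusted p under 0.05 against 9.2% of all genes. The S100a8 estimate of −0.32 with all samples became 0.54 without WT ns 3. Under LPS, 0 of the 10 were called against 0.126% of all genes, and 0 against 0.0746% without the libraries of number 2, and 0 of the 10 had an unadjusted p under 0.05 in either fit. DESeq2 with all samples called 0 of the 10 in either treatment. The median was −0.93 with all samples, with 10 of 10 below 0, and −0.62 without them, with 7 of 10 below 0 and Mpo at 1.11 ± 1.20.

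The difference in LPS response between the genotypes called 0 of the 10 and 0% of all genes, with and without the WT libraries of number 2. DESeq2 with all samples called 0 of the 10 and 11 of all genes. Without those libraries, Mpo had an estimate of 3.86 ± 1.70 (unadjusted p = 0.0318, adjusted p = 0.772, edgeR), and Ltf one of 2.31 ± 1.24. The fall of Mpo, Elane and Ltf in WT was thus not shown to differ from the response in KO.

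Other genes linked to the same cells were read from lists by granule class and stage. With all WT samples, 0 genes of these lists were called for LPS in WT. Of 7 azurophil and precursor genes, 4 fell with LPS in WT without the libraries of number 2, and 0 rose: Gfi1 (−3.10 ± 0.98) and Cebpe (−2.44 ± 0.87), transcription factors of granulocyte development, the serine protease gene Prss57 (−3.22 ± 1.10) and Prtn3, which encodes proteinase 3 (−3.42 ± 1.26). In that fit 30.7% of all genes tested were called in either direction. The median of the 7 was −2.44, against 0.03 over all genes, and −1.62 with all WT samples. In KO, 0 of these 7 were called and all 7 estimates were below 0, with a median of −0.66 against −0.02 over all genes. Of 10 specific and gelatinase granule genes, 1 was called in KO, where 22.3% of all genes were called in either direction. It was Lcn2, the siderophore-binding lipocalin 2, which rose by 2.07 ± 0.72 on the log2 scale (adjusted p = 0.0370, edgeR). In WT 0 of these 10 were called. Lcn2 lay at 17.8 to 542.3 CPM in KO ns and at 583.9 to 1087 CPM in KO LPS, without overlap. In WT samples of other numbers its ranges overlapped, at 21.43 to 1304 CPM in WT ns and 710 to 2385 CPM in WT LPS.

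Among 16 listed genes of mature neutrophils, 8 rose and 0 fell with LPS in KO, against 22.3% of all genes called in either direction, and the median log2 fold change was 1.45. In WT without the libraries of number 2, 9 rose and 0 fell, against 30.7% of all genes, with a median of 1.85, and with all WT samples 0 were called, with a median of 0.99. The summed level of the list did not separate the treatments, at 486.3 to 2101 CPM in KO ns and 820.3 to 2061 CPM in KO LPS. In the WT ns and WT LPS samples of other numbers it lay at 1338 to 2264 and 1389 to 2893 CPM. Csf3r weighed heavily in this sum, with medians of 1542 and 1156 CPM in KO ns and KO LPS beside 1600 and 1558 CPM for the list. In the WT ns and WT LPS samples of other numbers the Csf3r medians were 1524 and 769.4 CPM, beside 1802 and 1716 CPM for the list. Il1r2, the decoy receptor for interleukin 1, rose by 5.34 ± 1.06 in KO and by 5.18 ± 0.70 in WT without the libraries of number 2. It lay at 2.42 to 11.6 CPM in KO ns and 71.9 to 394.9 CPM in KO LPS. In the libraries of number 2 it lay at 320.1 to 630.7 CPM in the pair labelled WT ns and 10.57 to 17.61 CPM in the pair labelled WT LPS. Trem1, an amplifying receptor of myeloid cells, rose by 2.58 ± 0.60 in KO, and Cxcl2, a neutrophil-attracting chemokine, by 4.14 ± 0.90. The stefin-like gene BC100530 rose by 4.15 ± 1.04 in KO. Stfa2, a stefin that inhibits cysteine proteases, rose by 4.87 ± 1.00 in WT without the libraries of number 2. Several genes of this list are also made by other myeloid cells, and Csf3r, its most abundant member, lay at 742.7 to 1258 CPM in all 18 animals of the sex experiment, a narrow range beside that of S100a8, and at 122.3 to 1720 CPM in the LPS experiment. Csf3r was not called for LPS, with estimates of −0.37 ± 0.42 in KO and −0.93 ± 0.43 in WT without the libraries of number 2 (adjusted p = 0.591 and 0.0992, edgeR).

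Among markers of other cells, in KO, where 22.3% of all genes were called, 4 of 9 microglia genes fell and 0 rose (Gpr34 by 3.56 ± 0.79). Of the 6 border macrophage genes 3 fell (Pf4 by 2.37 ± 0.65), as did 3 of the 6 B cell genes tested and 2 of 4 mast cell and basophil genes. In WT without the libraries of number 2, the fit in which Mpo, Elane and Ltf were called along with 30.7% of all genes, 6 of 9 microglia, 5 of 6 B cell, 2 of 6 border macrophage and 1 of 4 mast cell and basophil genes fell, and 0 of these rose. Among 10 monocyte genes, in KO, Vcan rose by 1.33 ± 0.40 and Ccr2 fell by 1.76 ± 0.56. The summed monocyte list ranged from 168.2 to 770.9 CPM in KO ns and from 305.8 to 636.9 CPM in KO LPS, and from 306.6 to 1278 and 344.5 to 918.9 CPM in the WT ns and WT LPS samples of other numbers. WT ns 3 and WT ns 8, the samples with the most Mpo, also had 1278 and 1130 CPM of the monocyte list and 27220 and 22190 CPM of the microglia list. Globin and other erythroid genes summed to 22310 CPM in the library labelled WT LPS 6 and to at most 1086 CPM in any other sample. The part of these cells in the results was not tested.

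The genes most like the 10 in their pattern across samples were found by the Pearson correlation of log2 CPM with the mean of the 10. Over the 18 animals of the sex experiment they were Serpinb1a (r = 0.996), an inhibitor of neutrophil serine proteases, then Chil3 and Cebpe (0.995 each), Cldn15 (0.991), Fcnb (0.989), Lcn2 (0.988), Cd177 and Anxa1 (0.987 each). Over the 32 samples of the LPS experiment they were Serpinb1a (0.951), I830127L07Rik (0.942), Lin28a (0.937), Cdca3 (0.930), Tmem40 (0.929), Ccno (0.927), 4930438A08Rik (0.926) and Prom1 (0.925). Serpinb1a was the 1 gene of the 8 shared by both. The samples share libraries, depth and a few animals with high levels, so these values describe the pattern and carry no test.

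On the mouse build GRCm39 the 10 genes lie on 6 chromosomes, with Camp, Ngp, Ltf and Mmp8 on chromosome 9 and S100a8 and S100a9 together on chromosome 3 (S100a8 at chr3:90576378-90577341 on the plus strand, S100a9 at chr3:90599937-90603028 on the minus strand). Ltf lies at chr9:110848360-110871834, Mpo at chr11:87684610-87695238 and Elane at chr10:79722146-79724050, all on the plus strand. Of the 10 genes, 9 overlap no other annotated gene in the table. Mmp8 overlaps the gene model Gm31751, whose count reached 80.8% of that of Mmp8 in a library of the sex experiment, so reads of the 2 may have been split and the Mmp8 values are uncertain.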

How the data were processed

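Poly(A) RNA of CD11b-isolated mouse brain cells was sequenced. The authors deposited 2 tables of unnormalized read counts per gene. The submitters' processing notes name FastQC, STAR 2.6.1, featureCounts, Subread and DESeq2 and the build GRCm39, without roles or settings. Of 57 samples in the labels, 6 are repeat libraries of the sex experiment that matched no column of their own. Whether their reads were added to the columns of the same animals is not known. Of counts from 1 to 20, 79% to 89.2% were even in the sex experiment and 39.7% to 45.6% in the LPS experiment, so totals of the former may not count each fragment once.

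Differences were tested with edgeR 4.0.16 in R 4.3.3 (TMM scaling, filterByExpr, robust quasi-likelihood F test, Benjamini-Hochberg adjustment over all genes), with library set as a covariate in the LPS experiment. Library set was read from the codes in the library names, and the labels do not name it as a batch. DESeq2 1.42.0 was an alternative. CPM used TMM-scaled library sizes summed over genes passing the filter, and log2 CPM used a prior count of 2. The labels do not tie libraries to animals beyond their names. The p-values weigh a difference against the spread between these samples and take each sample as independent. The edgeR test was tried on simulated counts with known changes for KO minus WT in males and LPS minus ns in KO. These counts were drawn independently for each library. They held no outlying libraries and none that go against their labels, so the trial does not cover such libraries. The members and gene lists were chosen with earlier results of these data known. Named were all 10 members and, from each other list, genes called (up to 4 per comparison, by smallest p) or among the 2 with the highest mean CPM, where a result turned on them, besides P2ry12, Saa3 and the 8 genes per experiment most correlated with the members' mean.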

Additional observations from a re-analysis of the deposited data

Results flagged for a closer look

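Levels were compared within each group of 4 to 8 samples by the gap between the most extreme sample and its nearest neighbour, as a share of the group's range (Dixon's test at 95%). For values with a normal spread, chance alone picks about 1 in 20 groups. The CPM levels were not put on a log scale and had a long upper tail, so high samples can be picked more often. The 10 genes also share their samples, so that several genes in 1 library are not separate events. Male WT 5 stood apart for all 10 genes, at these CPM levels: S100a8 12130, S100a9 14530, Retnlg 1191, Ly6g 126.9, Camp 1735, Ngp 10800, Ltf 6414, Mpo 798.7, Elane 200.3 and Mmp8 1292. Female WT 2 also stood apart for all 10: S100a8 6585, S100a9 9048, Retnlg 910.9, Ly6g 75.04, Camp 942, Ngp 6349, Ltf 3985, Mpo 189.1, Elane 48.21 and Mmp8 726 CPM. Female KO 4 stood apart for Camp 179 and Ltf 689.1 CPM.

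In the LPS experiment the library labelled WT LPS 1 stood apart for Ltf 1246, Mpo 145.1 and Elane 57.23 CPM, and WT LPS 7 for S100a8 5066 and S100a9 6066 CPM. KO ns 6 stood apart for S100a8 3501, S100a9 4446 and Retnlg 779 CPM. KO LPS 5 stood apart for S100a8 1539, S100a9 2086, Retnlg 344.6 and Ly6g 13.74 CPM, and KO LPS 1 for Camp 112, Ngp 964 and Ltf 491.6 CPM. All of these were the highest sample of their group. In the KO LPS group different genes thus picked different libraries.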

How the results depend on the processing

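The count of members called stayed at 0 under every alternative run in 8 of 10 comparisons. For LPS against ns in KO it was 2 with DESeq2 and 0 otherwise. For LPS against ns in WT it was 0 with all samples, 1 with DESeq2, 3 without the WT libraries of number 2, 3 without number 2 in all groups, 4 without the WT libraries of number 2 with DESeq2, and 0 to 4 when 1 sample was left out (3 without WT LPS 1; 1 to 4 where the WT libraries of number 2 were left out too). Settings that combine the loss of those libraries with DESeq2 or another left-out sample were added after the data were seen, as was leaving out male WT 5 and female WT 2 together.

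Log2 estimates of named members changed sign as follows; the cause was not tested. Without male WT 5 and female WT 2, S100a8 was 0.98 in females and 0.31 averaged over the sexes, Ltf 0.21 and Mpo 1.12 averaged. Leaving out 1 sample gave S100a8 −1.97 to 0.99 and Mpo −0.39 to 2.90 in females, S100a8 −1.23 to 3.37 for the sex interaction, and S100a8 −1.88 to 0.41 and Mpo −0.98 to 2.27 for females against males. In the LPS experiment it gave S100a8 −0.64 to 0.42 for LPS in KO, −0.81 to 1.11 for LPS in WT and −1.07 to 0.54 for KO at ns, and Mpo −1.76 to 1.23 for KO under LPS. Library set 1 alone gave S100a8 −0.18 for LPS in WT (−0.79 also without the WT libraries of number 2) and Mpo −0.90 for the genotype by LPS interaction; set 2 alone gave Ltf 0.24 and Mpo 0.93 for LPS in KO and Mpo 1.06 for KO under LPS. Mpo for KO under LPS was 1.11 without the WT libraries of number 2 and 1.12 without number 2 in all groups, where S100a8 for LPS in WT was −0.0015.

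Same-numbered libraries were not treated as paired, since not every pair correlated above 0.1. Such correlations were found for 5 of 8 same-numbered pairs of animals (7 of 32 other pairs; mean r 0.126 and −0.0296) and for 34 of 48 in the LPS table (171 of 360 others; mean r 0.24 and 0.0207), and 8 of 16 and 12 of 32 libraries correlated best with their own number. With the replicate block, 0 members were called in all 10 comparisons. S100a8 was 0.46 for LPS in KO and 0.25 for the interaction, and Mpo 0.20 for KO under LPS. For LPS in WT, 0 members were called with all samples even without the block. The block was not combined with leaving out the WT libraries that went against their labels, where edgeR called Mpo, Elane and Ltf. Whether those calls hold with the block was thus not tested. All-gene calls went from 52 to 5 in females and from 137 to 84 averaged.

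All-gene calls ranged, over the settings run, from 2 to 24 in males (3 with the tests as reported), 3 to 213 in females (52), 54 to 359 averaged (137), 167 to 754 for females against males (273), 0 to 4815 for LPS in KO (3542), 0 to 6792 in WT (0), 0 to 157 for KO at ns (18), 0 to 135 under LPS (20) and 0 to 11 for the interaction (0). The between-sample coefficient of variation of all genes was 35.3% and 46.1%, and with groups of 4 to 8 samples and member levels spanning up to 2100-fold, the number of samples limits the precision.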
